A study of Mus musculus with 3 samples.

Results

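The 10 inflammatory cytokine genes followed here, chosen by their symbols, were read in plasmacytoid dendritic cells grown from mouse bone marrow: Il1a, Il1b, Il18, Tnf, Il6, Il12a, Il12b, Il27, Il10 and Il15. Of these 10 genes, 9 were analysed, each through 1 probe set, out of 19505 named genes. Il12b was not analysed here. The 9 genes were read in 3 arrays, 1 per group. The first group received astragaloside IV, a plant saponin from Astragalus, for 12 h. The second received oxymatrine, a plant alkaloid from Sophora, for 12 h. Both were then exposed for 1 h to CCL21, a chemokine that acts through CCR7. The third group was control cells. All 3 groups came from wild-type male BALB/c mice aged 4 to 5 weeks. Their marrow was kept in 100 ng/mL of Flt3 ligand over 6 to 9 days, and the cells were matured with CpG DNA, a TLR9 ligand, and then sorted. The control cells therefore carried the CpG maturation too. The labels state no dose, and they leave out whether CCL21 or a vehicle was given to the controls. A compound and the CCL21 step therefore cannot be told apart in a difference from control. Nothing states how many mice contributed to each array. There were no replicates, so each value is that of a single array and no test between groups was possible.

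Plasmacytoid dendritic cells sense nucleic acids in endosomes through TLR7 and TLR9 and are best known for type I interferon. The same receptors also signal through MyD88 to NF-kB, AP-1 and IRF5, which switch on cytokine genes. Transcripts of several of these cytokines carry AU-rich elements and are short-lived, so their levels follow both transcription and decay.

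Values are the authors' log2 expression levels, and a difference of 1 on this scale is 2-fold. A gene was taken as above background when its mean level was at least 5.28. That is the 95th percentile among 1410 genes for smell and pheromone receptors (Olfr and Vmn), which blood cells do not normally use. By this measure 10671 of the 19505 named genes were above background, and 8 of the 9 cytokine genes were. Probes differ in brightness, so levels are compared between arrays for the same gene and never between genes. Most differences of the cytokine genes are set against the SD of that difference among the 533 or 534 genes of similar level. This SD describes how far apart such genes lay in these arrays and is not a replicate error. Many differences of other genes are given without it.

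Of the cell type markers listed, 19 of 20 for plasmacytoid dendritic cells were above background, with Pacsin1 below it. Within this list the surface marker Siglech was at 8.99 with astragaloside IV, 9.02 with oxymatrine and 8.99 in control (chosen, like Spib, after its values were seen). Spib, which encodes a transcription factor of these cells, was lowest in the oxymatrine array at 7.55, with 8.03 in the other arrays. Ccr9, a homing receptor gene, was at 9.20 with astragaloside IV and 9.15 with oxymatrine, against 9.46 in control. Smim5 lay the other way, at 7.19 with astragaloside IV and 7.68 with oxymatrine, against 6.36 in control, the only marker of the list 2-fold from control, and only with oxymatrine. Of the monocyte and macrophage markers 16 of 17 were above background as well, and these cells are also strong producers of IL-1, TNF and IL-6. The summed intensity of these monocyte and macrophage markers, on the log2 scale, was 16.83 with astragaloside IV, 16.82 with oxymatrine and 16.89 in control. Also above background were 8 of 10 markers of conventional type 1 dendritic cells, 9 of 11 of type 2, 7 of 14 of T and NK cells, 4 of 10 of B cells, 3 of 15 of neutrophils and 1 of 8 of mast cells and basophils. Over all named genes 10671 of 19505 were above background, so such counts alone do not show that a cell type was present. Among the markers below background were Clec9a and Xcr1 of type 1 dendritic cells, the T cell genes Cd3e, Cd3d and Cd3g and the neutrophil granule genes Elane and Mpo. Those above it included Csf1r, Adgre1, Lyz2 and Ms4a7 of monocytes and macrophages and Itgam and Sirpa of type 2 dendritic cells. In sorted bulk cells such as these, fewer cells of a type and less RNA per cell cannot be told apart.

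**Figure D1:**
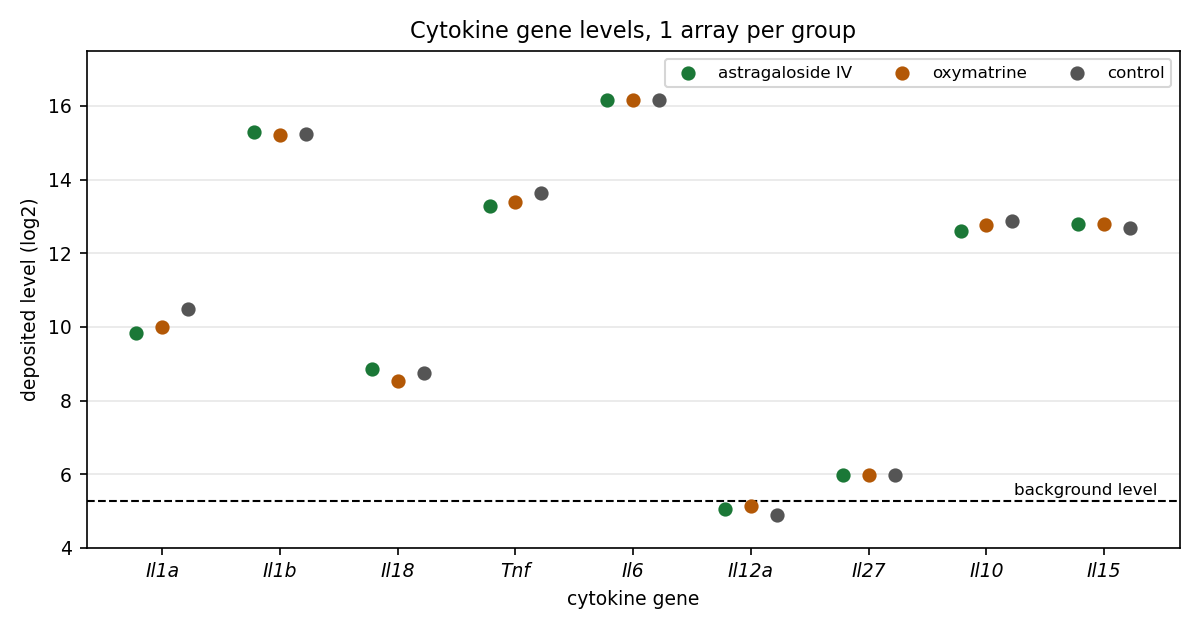
Deposited log2 levels (y axis) of the 9 analysed cytokine genes (x axis) with astragaloside IV, oxymatrine and in control, each point 1 array, with the background level of 5.28 as a dashed line. Il12a lies below the line in all 3 arrays, Il1a and Tnf are highest in control, and the 3 points of Il6 coincide at 16.15.

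No cytokine gene was 2-fold apart in any comparison. In the background, 0.197% of all genes above background were 2-fold apart with astragaloside IV against control, 0.281% with oxymatrine against control and 0.159% between the treated arrays. At 1.5-fold, 1 of the 8 genes, Il1a, was lower with astragaloside IV, where 1.28% of all genes were lower by that much. With oxymatrine 0 of 8 were lower by 1.5-fold, against 2.01% of all genes. No cytokine gene was higher than control by 1.5-fold in a treated array, against 0.843% of all genes with astragaloside IV and 1.3% with oxymatrine. A list of 8 genes gives only coarse shares to set beside these.

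The median difference of the 8 genes from control was 0.0069 with astragaloside IV, and it was below 0 once arrays were centred or quantile normalised. In that array 3 genes lay below control, 4 above it and 1 was equal within 0.01. With oxymatrine the median was -0.066, and 5 genes lay below control, 2 above it and 1 was equal. Over all genes above background 38.7% lay below and 29.4% above control with astragaloside IV, and 44.2% lay below and 28.0% above with oxymatrine. Once arrays were centred on their medians, 5 of the 8 genes lay below control and 2 above it with astragaloside IV, and 7 lay below and 1 above with oxymatrine. On the deposited scale the median over all genes above background was 0 in both comparisons. After centring it was -0.058 with astragaloside IV and -0.063 with oxymatrine, so the centred counts include a shift shared by all genes. The share of all genes below control after centring was not counted. Both comparisons use the same control array, so a high or low control value enters both.

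**Figure D2:**
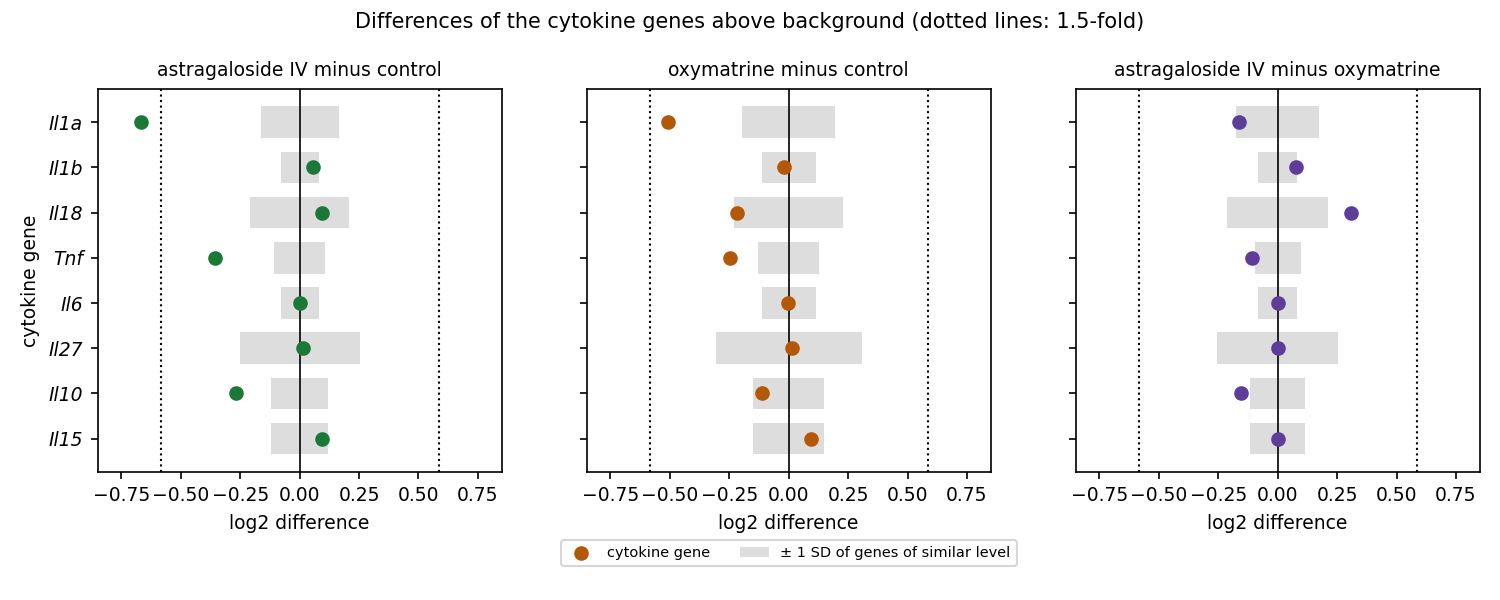
Log2 differences (x axis) of the 8 cytokine genes above background (y axis) for astragaloside IV minus control, oxymatrine minus control and astragaloside IV minus oxymatrine. Points are genes, grey bars reach 1 SD of genes of similar level to each side of 0, and dotted lines mark 1.5-fold. Il1a at -0.67 with astragaloside IV is the only point past a dotted line.

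Within the IL-1 family, Il1a was lower in both treated arrays and Il1b lay close to its control level. Il1a encodes IL-1 alpha, which is active as its precursor and acts as an alarm signal when cells are damaged. It was at 9.83 with astragaloside IV and 9.99 with oxymatrine, against 10.50 in control, so both treated arrays lay below control. The difference was -0.67 with astragaloside IV, or 0.629 times the control level, which is -4.06 times the SD of 0.16 at its level. No other of the 533 genes of its level lay as far from control in that array. With oxymatrine the difference was -0.51, or 0.704 times control and -2.60 times the SD of 0.19, and 18 of the 533 genes lay at least as far, Il1a included. Under 3 other scalings of the arrays (by the median, by quantiles and by lowess), the difference ranged from -0.73 to -0.65 with astragaloside IV and from -0.57 to -0.45 with oxymatrine. The summed log2 intensity of the 15 neutrophil markers analysed was 13.01 with astragaloside IV and 13.26 with oxymatrine, against 13.50 in control, and 3 of these 15 were above background. Most of that sum was Lcn2, and the mean log2 level of the same 15 markers followed another order, at 5.34 with astragaloside IV, 5.50 with oxymatrine and 5.45 in control. Lcn2 itself was at 12.71 with astragaloside IV and 12.94 with oxymatrine, against 13.21 in control. The 12 markers of this list below background included S100a8, S100a9, Elane and Mpo. The part of neutrophils or monocytes in the Il1a difference was not tested.

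Il1b encodes IL-1 beta, which is made as an inactive precursor and cleaved by caspase-1. It was at 15.29 with astragaloside IV and 15.21 with oxymatrine, against 15.23 in control. The differences of 0.06 and -0.02 were both inside the SD of genes of its level, and the second was above 0 after quantile normalisation. Il18, whose product is also activated by caspase-1 and drives interferon gamma production by T and NK cells, was at 8.85 with astragaloside IV and 8.54 with oxymatrine, against 8.75 in control. The control value lay between the treated ones, with differences of 0.09 and -0.22 that were inside 1 SD of genes of similar level, 0.21 and 0.23.

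The antagonists and decoys of the family lay inside the SD of genes of their level. Il1rn, which encodes the antagonist of the IL-1 receptor, was at 15.50 in all 3 arrays. Il1r2, which encodes a decoy receptor, was at 9.33 with astragaloside IV and with oxymatrine, against 9.32 in control. Il18bp, which encodes the binding protein that neutralises IL-18, was at 9.11 with astragaloside IV, 9.28 with oxymatrine and 9.28 in control. Casp1, the gene for caspase-1, was at 14.72 with astragaloside IV and with oxymatrine, against 14.82 in control. Its difference of -0.101 with astragaloside IV was beyond the SD of 0.080, and that of -0.107 with oxymatrine was inside 0.113. Nlrp3, the inflammasome sensor gene, was at 8.03 with astragaloside IV, 8.01 with oxymatrine and 8.10 in control. Casp1 and Nlrp3, like the other genes named by role in the following paragraphs without being extremes of their lists, were chosen after the values had been seen.

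Tnf, the gene of a cytokine that is cut from the cell surface by ADAM17, was also lower in both treated arrays. It was at 13.28 with astragaloside IV and 13.38 with oxymatrine, against 13.63 in control. The difference with astragaloside IV was -0.35, or 0.782 times control and -3.32 times the SD of 0.11, and 6 of 533 genes of similar level lay at least as far, Tnf included. With oxymatrine it was -0.25, or 0.842 times control and -1.95 times the SD of 0.13, and 41 of the 533 lay at least as far. Under the other scalings it ranged from -0.41 to -0.34 with astragaloside IV and from -0.31 to -0.21 with oxymatrine.

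Lta, which encodes the related lymphotoxin alpha and neighbours Tnf in the genome, was at 6.52 with astragaloside IV and 6.72 with oxymatrine, against 6.95 in control. Its differences were -0.43 and -0.23, against SDs of 0.26 and 0.27 for genes of that dim level. Tnfrsf1b, the gene of TNF receptor 2, was at 14.10 with astragaloside IV and 14.15 with oxymatrine, against 14.32 in control. Tnfrsf1a, the gene of TNF receptor 1, lay on opposite sides of its control level of 10.76, at 11.02 with astragaloside IV and 10.48 with oxymatrine. Adam17 was at 12.33 with astragaloside IV and 12.20 with oxymatrine, against 12.34 in control. Rhbdf2, which encodes the iRhom2 protein that escorts ADAM17 to the surface, was at 11.01 with astragaloside IV and 10.64 with oxymatrine, against 11.02 in control. The oxymatrine difference of Rhbdf2, -0.38, was more than its level's SD of 0.18.

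**Figure D3:**
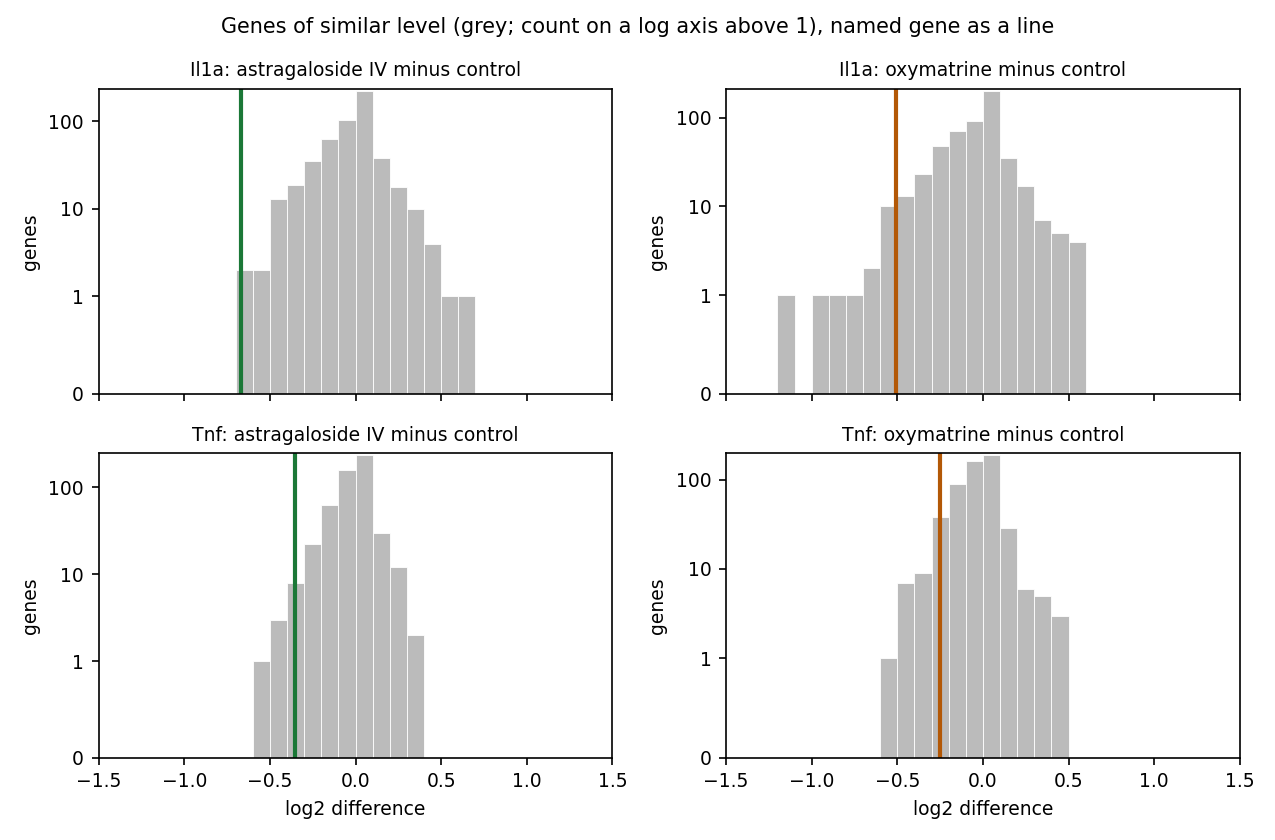
Number of genes (y axis, log scale above 1) by log2 difference (x axis, steps of 0.1) among the 533 genes of a level similar to Il1a (top) and to Tnf (bottom), for astragaloside IV minus control (left) and oxymatrine minus control (right). The coloured line is the named gene: Il1a at -0.67 and -0.51, Tnf at -0.35 and -0.25, with Il1a at the lower edge of the distribution with astragaloside IV.

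Il6 had nearly the same deposited value in the 3 arrays. Its product drives the acute phase response and B cell maturation, and plasmacytoid dendritic cells use it to promote plasma cells. Il6 was at 16.15 with astragaloside IV, with oxymatrine and in control, with a range of 0.0007 over the 3 arrays. Identical values were frequent: 5507 of 10671 genes above background, or 51.6%, were identical in 2 or more arrays, among them 3 of the 8 cytokine genes (Il6, Il15 and Il27). The source of the identical values was not tested, so they are not read as equal amounts of transcript. Il6st, the gene of the signalling chain gp130, was at 12.61 with astragaloside IV and 12.75 with oxymatrine, against 12.48 in control. Il6ra, the ligand-binding chain, lay on opposite sides of its control level of 9.36, at 9.58 with astragaloside IV and 9.09 with oxymatrine.

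The promoter of Il1a is shown because only Il1a passed the fold cut used for promoters in both treated arrays. It was at 0.629 times control with astragaloside IV and 0.704 with oxymatrine, while Tnf, at 0.842 with oxymatrine, fell short. The promoter of Il6 is shown because its probe set was the brightest, a choice that does not rank the genes by abundance. The promoters of Tnf and Il1b were added after the values had been seen, as another lower gene and as the IL-1 gene that lay close to control. Each line gives the 250 bases before the start site from RefSeq, build GRCm38.p6, read 5′ to 3′ on the gene's strand, with motif matches in capitals.
Il1a promoter, chr2:129309973-129310222 (minus strand): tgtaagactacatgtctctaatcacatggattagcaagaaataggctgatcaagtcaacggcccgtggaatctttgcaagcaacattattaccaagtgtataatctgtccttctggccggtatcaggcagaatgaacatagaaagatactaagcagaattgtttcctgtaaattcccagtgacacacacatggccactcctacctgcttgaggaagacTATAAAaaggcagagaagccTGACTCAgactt
Il1b promoter, chr2:129371140-129371389 (minus strand): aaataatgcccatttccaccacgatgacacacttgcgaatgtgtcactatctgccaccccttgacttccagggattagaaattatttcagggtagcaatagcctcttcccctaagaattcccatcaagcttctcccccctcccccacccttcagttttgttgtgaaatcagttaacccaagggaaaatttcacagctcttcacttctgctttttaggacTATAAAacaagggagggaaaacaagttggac
Tnf promoter, chr17:35202008-35202257 (minus strand): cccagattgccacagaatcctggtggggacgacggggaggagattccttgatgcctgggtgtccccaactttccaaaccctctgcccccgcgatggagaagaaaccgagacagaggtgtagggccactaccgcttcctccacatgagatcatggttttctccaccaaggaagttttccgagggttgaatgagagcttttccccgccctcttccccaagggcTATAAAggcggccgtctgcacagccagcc
Il6 promoter, chr5:30012864-30013113 (plus strand): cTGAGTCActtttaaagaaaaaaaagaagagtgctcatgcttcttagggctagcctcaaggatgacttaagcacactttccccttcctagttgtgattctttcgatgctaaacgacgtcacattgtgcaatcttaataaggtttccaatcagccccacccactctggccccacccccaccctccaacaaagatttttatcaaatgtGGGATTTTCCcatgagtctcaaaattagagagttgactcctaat
The motifs searched on both strands were TATAAA (the core promoter element bound by TBP), the AP-1 site TGANTCA, the core of the interferon-stimulated response element and the kappa-B consensus bound by NF-kB. No matches in these windows overlapped. The promoters of Il1a, Il1b and Tnf all held TATAAA, with its last base at -27, -26 and -24 from the start site in that order, a motif found in 12.4% of 32851 promoters of the same length. Il1a also held TGACTCA at -12 to -6, and Il6 held TGAGTCA at -249 to -243. TGANTCA was found in 6.75% of all promoters. The kappa-B consensus was matched by GGGATTTTCC in Il6 at -44 to -35, and was found in 7.25% of all promoters. The interferon element core, which 2.98% of all promoters held, matched none of these windows. A match describes the letters of the window only.

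Of the IL-12 family, whose cytokines are built from paired chains, Il12a and Il23a were below background and Il27 and Ebi3 above it. Il12a, which encodes the p35 chain of IL-12 and IL-35, was at 5.06 with astragaloside IV and 5.14 with oxymatrine, against 4.89 in control, below the background level in every array, so its differences are not read. Il27, which encodes the p28 chain of IL-27, was just above background at 5.99 with astragaloside IV and with oxymatrine, against 5.98 in control. Its difference of 0.01 from control turned negative once arrays were centred or quantile normalised. Ebi3, the partner chain of p28 and p35, was at 13.24 in all 3 arrays. Il23a, the p19 chain of IL-23, was below background at 4.23 with astragaloside IV and with oxymatrine, against 4.27 in control.

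Il10 encodes the main anti-inflammatory cytokine of the group, which limits the antigen presentation and cytokine output of dendritic cells. It was at 12.61 with astragaloside IV and 12.77 with oxymatrine, against 12.88 in control, so it lay lower in both treated arrays, in the same order as Il1a and Tnf. The difference was -0.27 with astragaloside IV, or 0.831 times control and -2.22 times the SD of 0.12, and 22 of 534 genes of similar level lay at least as far. With oxymatrine it was -0.11, inside the SD of 0.15. Il10ra, the ligand-binding receptor chain, was at 13.72 with astragaloside IV and 13.91 with oxymatrine, against 13.74 in control.

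Il15, whose product is shown to NK and memory T cells on the IL-15 receptor alpha chain, lay above control in both treated arrays. Of the 8 genes above background only Il27 did so too, by 0.01. Il15 was at 12.79 with astragaloside IV and with oxymatrine, against 12.69 in control. The treated arrays held an identical value for Il15, so its differences from control are the same number. The difference of 0.09 in each was inside the SDs of 0.12 and 0.15, and it was 0.03 or more under each other scaling. Il15ra was at 10.83 with astragaloside IV and with oxymatrine, against 10.79 in control. Il2rb, which encodes the signalling chain shared by the IL-15 and IL-2 receptors, was at 6.32 with astragaloside IV and 6.48 with oxymatrine, against 7.33 in control. Its difference was -1.01 with astragaloside IV and -0.84 with oxymatrine, against SDs of 0.26 and 0.27. Il2rb was the only 1 of 13 receptor chain genes above background that lay 1.5-fold or more from control. It is also a marker of T and NK cells, of which 7 of 14 were above background. The summed log2 intensity of these 14 markers, Il2rb included, was 10.47 with astragaloside IV, 10.39 with oxymatrine and 10.65 in control. Il2rb thus lowers the sum set beside it, and the part of such cells was not tested.

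Between the treated arrays these genes lay close together. Il18 had the furthest difference, 0.31 for astragaloside IV minus oxymatrine, or 1.24 times, against an SD of 0.21, and 77 of 533 genes of similar level lay at least as far. Il1a differed by -0.16, Il10 by -0.16 and Tnf by -0.11, all lower with astragaloside IV than with oxymatrine, at -1.36 to -0.93 times their SDs. Il1b differed by 0.08, and Il6, Il15 and Il27 were equal within 0.01. The median over the 8 genes was 0, as it was over all genes above background. At 1.5-fold 0 of the 8 were apart, against 2.58% of all genes.

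Likeness to Il1a was measured as the distance between pairs of differences from control, over 3 arrays and 10232 other genes above background that carry a regular gene name. The 4 nearest were Errfi1, Ttc5, Wdr77 and Rgs9bp, at distances of 0.035 to 0.041. Errfi1, which encodes a feedback inhibitor of the EGF receptor, was at 8.73 with astragaloside IV and 8.89 with oxymatrine, against 9.37 in control. In all 17 genes lay within 0.1 of Il1a. With 3 arrays such a likeness rests on 2 differences that share the control.

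Counts of genes below, above and level with control in the following lists are on the deposited scale, and centring on the array medians would shift the median of all genes by -0.058 with astragaloside IV and -0.063 with oxymatrine. Beside them, 38.7% of all genes above background lay below and 29.4% above control with astragaloside IV, and 44.2% and 28.0% with oxymatrine. At 1.5-fold these shares were 1.28% lower and 0.843% higher with astragaloside IV, and 2.01% and 1.3% with oxymatrine. Of 16 genes of TLR9 signalling above background, the astragaloside IV array had 6 below control, 2 above and 8 equal, and the oxymatrine array had 5 below, 3 above and 8 equal. Both medians were 0 and none was 1.5-fold apart. Tlr9, the CpG sensor, was at 12.53 with astragaloside IV, 12.62 with oxymatrine and 12.62 in control. Irak3, which encodes a kinase-dead brake on this pathway, was at 13.30 with astragaloside IV and with oxymatrine, against 13.44 in control. Irf7, an interferon regulatory factor downstream of TLR9, was at 14.95 with astragaloside IV and 14.84 with oxymatrine, against 15.05 in control. Map3k7, the gene of the kinase TAK1, was at 11.46 with astragaloside IV and with oxymatrine, against 11.28 in control, and Slc15a4, an endosomal transporter needed for TLR9 responses, at 12.70 with astragaloside IV and 12.81 with oxymatrine, against 12.66.

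Of 13 NF-kB subunit and inhibitor genes, 6 lay below and 5 above control with astragaloside IV (median 0), and 8 lay below and 5 above with oxymatrine (median -0.05). Nfkbia, which encodes the inhibitor IkB alpha and is itself an NF-kB target, was at 15.02 with astragaloside IV and 15.00 with oxymatrine, against 15.21 in control. Bcl3, an atypical IkB family gene, was at 12.58 with astragaloside IV and 12.50 with oxymatrine, against 12.81 in control. Rela, the gene of the p65 subunit, lay the other way, at 15.51 with astragaloside IV and 15.69 with oxymatrine, against 15.33 in control. Its differences were 0.18 with astragaloside IV and 0.37 with oxymatrine, beyond the SDs of 0.08 and 0.11 at its level. Nfkbia and Bcl3 also lay beyond the SDs at their levels in both treated arrays, below control. Tnfaip3, which encodes the deubiquitinase A20, was at 14.93 with astragaloside IV and 15.11 with oxymatrine, against 14.89 in control. Tnip1, a partner of A20, was the only gene of the list 1.5-fold from control, at 12.63 with astragaloside IV and 11.88 with oxymatrine, against 12.62 in control. Its oxymatrine difference was -0.73, against an SD of 0.16 for genes of its level.

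Among 18 genes of AP-1, MAP kinases and C/EBP factors, 5 lay below and 8 above control with astragaloside IV, and 9 lay below and 6 above with oxymatrine. None was 1.5-fold from control. Junb was at 13.18 with astragaloside IV and 13.10 with oxymatrine, against 13.44 in control. Mapk14, the gene of p38 alpha, which stabilises cytokine transcripts through its kinase cascade, was at 10.98 with astragaloside IV and 10.73 with oxymatrine, against 11.11 in control. Fosl1 was at 7.28 with astragaloside IV and 7.06 with oxymatrine, against 6.75 in control, and Fosb at 8.56 with astragaloside IV and 9.02 with oxymatrine, against 8.56.

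Of 15 genes that set the decay or translation of cytokine transcripts, 10 lay below and 2 above control with astragaloside IV (median -0.06), and 9 lay below and 3 above with oxymatrine (median -0.13). Over all genes above background 38.7% were lower with astragaloside IV and 44.2% with oxymatrine. Zfp36l1, which encodes a protein that binds AU-rich elements and promotes decay, was at 13.88 with astragaloside IV and 13.90 with oxymatrine, against 14.17 in control. Zfp36, the gene of tristetraprolin, which destabilises Tnf transcripts, was at 14.42 with astragaloside IV and 14.34 with oxymatrine, against 14.53 in control. Zc3h12a, the gene of regnase-1, which cleaves Il6 transcripts, was at 11.17 with astragaloside IV and 11.28 with oxymatrine, against 11.50 in control. Rc3h2, the gene of roquin-2, lay higher at 10.64 with astragaloside IV and 10.84 with oxymatrine, against 10.28 in control. Tial1, which encodes a translational repressor, was at 11.24 with astragaloside IV and 11.37 with oxymatrine, against 11.22 in control. Arid5a, which encodes a protein that stabilises Il6 transcripts, was at 7.45 with astragaloside IV and 6.71 with oxymatrine, against 7.50 in control. Its oxymatrine difference of -0.79 was the only one of the list at 1.5-fold or more from control.

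Of 14 genes of maturation and release above background, 7 lay below control, 1 above and 6 equal with astragaloside IV (median -0.011). With oxymatrine 8 lay below, 3 above and 3 equal (median -0.095). None was 1.5-fold apart. Adam10, a membrane protease gene, was at 11.87 with astragaloside IV and 11.54 with oxymatrine, against 11.92 in control. Capn2, a calpain gene, was at 11.29 with astragaloside IV, 11.33 with oxymatrine and 11.29 in control, and Aim2, a DNA sensor gene, at 9.32 with astragaloside IV and with oxymatrine, against 9.30.

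**Figure D4:**
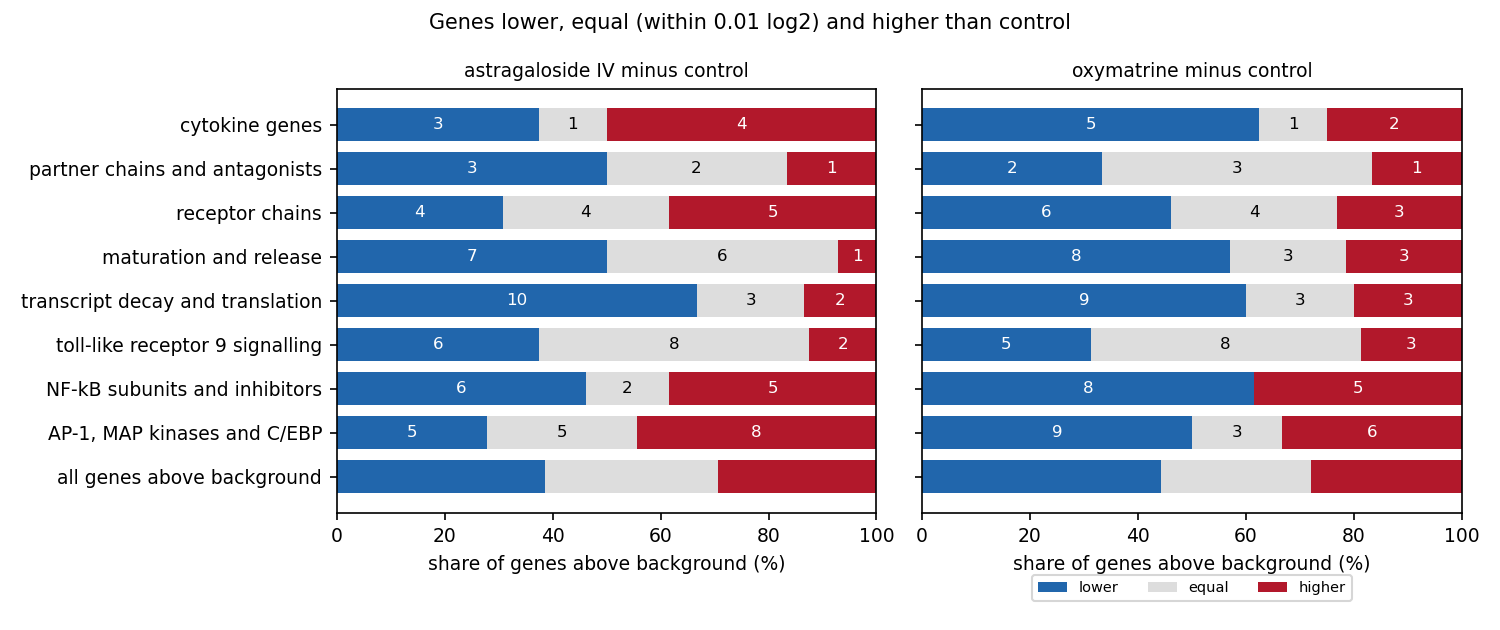
Share of genes above background (x axis, %) that were lower, equal within 0.01 or higher than control, by gene list (y axis), with the number of genes in each segment, for astragaloside IV (left) and oxymatrine (right). The lowest bar gives all 10671 genes above background, of which 38.7% were lower with astragaloside IV and 44.2% with oxymatrine, while 10 of 15 and 9 of 15 decay and translation genes were lower.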

How the data were processed

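Per the labels' protocols, a whole-transcript kit turned total RNA into biotinylated cRNA, and 1 array was run per group. The deposited log2 values, 1 per probe set and array, were made by the authors with RMA (background subtraction, quantile normalisation, median polish), per the submitters' processing notes. The log base was inferred from the range of the values. Software, version and genome build were not given in the sources used here. Of 28846 probe sets, 19572 had 1 symbol in the platform's 2019 annotation, 0 several and 9274 none. All 19572 Entrez identifiers were found in RefSeq. The brightest probe set stood for each of 55 genes with several. For arrays no depth applies, and precision is limited by their number. The samples were grouped by title, and 3 pairwise log2 differences were taken, with no test. SDs at similar level came from 20 bins of equal size. Alternatives were other background percentiles (90 and 99) or none, 1.5-fold and 3-fold thresholds, 3 other scalings (median, quantile, lowess with fraction 0.3) and averaged probe sets.

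The genes and lists were chosen with earlier results of these data known. Named were all 10 cytokine genes, the 2 highest and 2 lowest genes of each list by mean difference from control, genes 1.5-fold apart, the partner chains Ebi3, Il23a and Il1rn, and the 4 genes nearest a cytokine gene 1.5-fold from control. Of 258 listed symbols 240 were matched, 3 by another name. The 2-fold call was tested on simulated 3-fold shifts with noise below that of these arrays. That test does not cover differences as small as those of the cytokine genes. Python 3.11.15, numpy 2.4.6, pandas 2.3.3, statsmodels 0.14.6 and matplotlib 3.10.9 were used.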

Additional observations from a re-analysis of the deposited data

How the results depend on the processing

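At 2-fold no cytokine gene was apart in any of the 3 comparisons under the other background percentiles, no level filter, the 3 other scalings, averaging over probe sets or 3-fold. At 1.5-fold 1 gene was apart, with astragaloside IV against control. After centring on the median the list median was -0.051 with astragaloside IV, against 0.0069 as reported, and -0.13 with oxymatrine, against -0.066, because centring moved the median of all genes by -0.058 and -0.063. The count above background was 9 with the 90th percentile and 8 with the 99th. Of 96 single-gene differences recomputed, 96 moved by less than the SD of genes of similar level. Those recomputed by averaging over probe sets could not move, because each cytokine gene had 1 probe set. The direction turned for Il27 in both comparisons with control, under centring and quantile normalisation, and for Il1b with oxymatrine under quantile normalisation. No replicate could be left out and no paired analysis was possible because each group had 1 array. Dim genes limit precision: Il12a was below background in all 3 arrays.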

Other observations

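Beyond the 10 cytokine genes, 33 other interleukin and growth factor genes were listed and analysed, of which 10 were above background and 23 below it. Among those below were the T cell cytokine genes Il2, Il4, Il5, Il13, Il17a, Il21 and Il22 and the growth factor genes Csf2 and Csf3. Of the 10 above background, 5 lay below control, 2 above and 3 level with it in the astragaloside IV array (median -0.015), and 6 lay below, 2 above and 2 level in the oxymatrine array (median -0.063). Clcf1, which encodes a cytokine of the IL-6 family that signals through gp130, was at 5.89 with astragaloside IV and 5.70 with oxymatrine, against 6.35 in control. Its oxymatrine difference of -0.65 was the only one in this list at 1.5-fold or more, against an SD of 0.31 for genes of that dim level. Csf1, the macrophage growth factor gene, was at 10.73 with astragaloside IV, 10.74 with oxymatrine and 10.73 in control. Ifng was at 6.64 with astragaloside IV and with oxymatrine, against 6.84 in control. Il1f9, the gene of IL-36 gamma, was at 5.85 with astragaloside IV and with oxymatrine, against 5.82 in control.

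Markers of other cell types are given here as log2 differences from control. Most are the extremes of their lists and do not show its balance. Counts below and above control, with astragaloside IV and then oxymatrine, were 5 and 2, then 6 and 1, for type 1 dendritic cells. For type 2 they were 3 and 3, then 5 and 2. Monocytes and macrophages had 5 and 4, then 6 and 2, and neutrophils 3 and 0, then 2 and 0. B cells had 1 and 2, then 0 and 3, and T and NK cells 3 and 1, then 5 and 1. Over all genes 38.7%, then 44.2%, lay below. Of type 1 dendritic cell markers in the astragaloside IV array, Itgae lay at -0.73, Gcsam at -0.61, Tlr3 at 0.53 and Wdfy4 at 0.07. In the oxymatrine array Itgae lay at -0.49, Gcsam at -0.45, Tlr3 at 0.10 and Wdfy4 at 0. Of type 2 dendritic cell markers in the astragaloside IV array, Irf4 lay at 0.20, Clec4a4 at 0.22, Esam at 0.01 and Cx3cr1 at -0.05. In the oxymatrine array Irf4 lay at -0.39, Clec4a4 at -0.16, Esam at 0.28 and Cx3cr1 at -0.05, and Irf4 was the only marker of this list 1.5-fold apart between the treated arrays. The macrophage marker C1qa lay at -0.51, Mertk at -0.27, Fcgr1 at 0.13 and Cebpb at 0.10 in the astragaloside IV array. The oxymatrine array had C1qa at -0.11, Mertk at -0.45 and Fcgr1 and Cebpb at 0. The neutrophil marker Csf3r lay at -0.49 and Mmp8 at -0.26 with astragaloside IV, and Csf3r at -0.10 and Mmp8 at 0 in the oxymatrine array. B cell markers in the astragaloside IV array were at 0.30 for Ebf1, 0.06 for Fcer2a, -0.22 for Cd79b and 0 for Ms4a1, and in the oxymatrine array at 0.32 for Ebf1, 0.06 for Fcer2a, 0 for Cd79b and 0.08 for Ms4a1. T and NK cell markers other than Il2rb included Cd5 at -0.45 in both treated arrays, Gzma at 0 in both, and Cd4 at 0.24 with astragaloside IV and at 0.23 with oxymatrine. Kit, the mast cell marker above background, lay at -0.01 with astragaloside IV and at -0.13 with oxymatrine. Of further plasmacytoid dendritic cell markers, Klk1b27 lay at 0.36 with astragaloside IV and at 0.11 with oxymatrine, and Ly6d at -0.30 in both.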
